A study of Thermothelomyces thermophilus ATCC 42464 with 3 samples.

Results

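The genes described here were chosen by their measured read counts: they had at least 4-fold lower levels in a library labelled as a MYCTH_90344 deletion mutant of the thermophilic fungus Thermothelomyces thermophilus (Myceliophthora thermophila) than in either wild-type (WT) library. A gene was a member when its WT mean was at least 5 CPM (counts per 1000000 counts of the library) and its level in the library labelled deletion, with 0.1 CPM added to both sides, was at most 25% of the level in each WT library. Of 9292 genes in the table, 6926 reached the WT minimum and 108 met the rule, which is 1.56% of those 6926. A further condition set aside 17 named loci, of which 10 met the rule, so that 98 members remained. All 98 were protein-coding genes, and the gene table gave no symbol for any of them.

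RNA was sequenced from mycelium of strain ATCC 42464. 1 library carried the genotype Mycth_90344 deletion mutant, and 2 libraries carried the genotype WT. Both genotypes were grown for 16 h in Vogel's salts with 2% glucose at 45 °C, washed, and given 2% Avicel, a microcrystalline cellulose, for a further 4 h. The labels do not say how the mutant was made, whether it was 1 clone, or whether each WT library had a culture of its own. Per the study's title, MYCTH_90344 encodes a transcription factor and regulates cellulase genes.

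Fungi that live on plant biomass secrete mixtures of enzymes that break cellulose and xylan into sugars, and they make most of these enzymes only when the polymer is present and glucose is scarce. Activators such as CLR-2 and XYR-1 switch on the enzyme genes, and CRE-1 represses them while a preferred sugar lasts. Filamentous fungi also often carry the genes of 1 metabolic pathway side by side on a chromosome, and genes placed in this way are often transcribed together.

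The library labelled deletion went against its label at the gene it names. MYCTH_90344 was at 336 CPM there, against 9.94 and 11.7 CPM in the WT libraries, 30.8-fold higher. These levels stand for 6978 reads, against 217 and 236 reads. The library is therefore called by its label throughout, and lower or higher below refers to that library. It was the only one of its genotype, so differences in the members cannot be told apart from differences between 1 culture and another. Totals were 20774092 counts in the library labelled deletion, against 21827636 and 20166880 counts in the WT libraries. A floor of 3 counts corresponded to 0.144 CPM there, against 0.137 and 0.149 CPM in WT.

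Because the ratio to WT chose the members, their lower levels are a description and carry no test. Together the 98 genes held 0.388% of all counts in the library labelled deletion (95% Wilson interval 0.386 to 0.391%, which covers counting error only), against 3.15% and 3.14% in the WT libraries, an 8.09-fold difference. In RNA from whole mycelium, fewer hyphae expressing a gene and less of its RNA per hypha cannot be told apart. The summed decrease of all genes with a lower level was 208417 CPM, and the members made up 13.2% of it. The 5 cellulase genes listed below made up 10.3%, and the 17 loci set aside made up 7.64%. The median of all 6926 genes at 5 CPM or more in WT had a log2 ratio of 0.01.

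**Figure D1:**
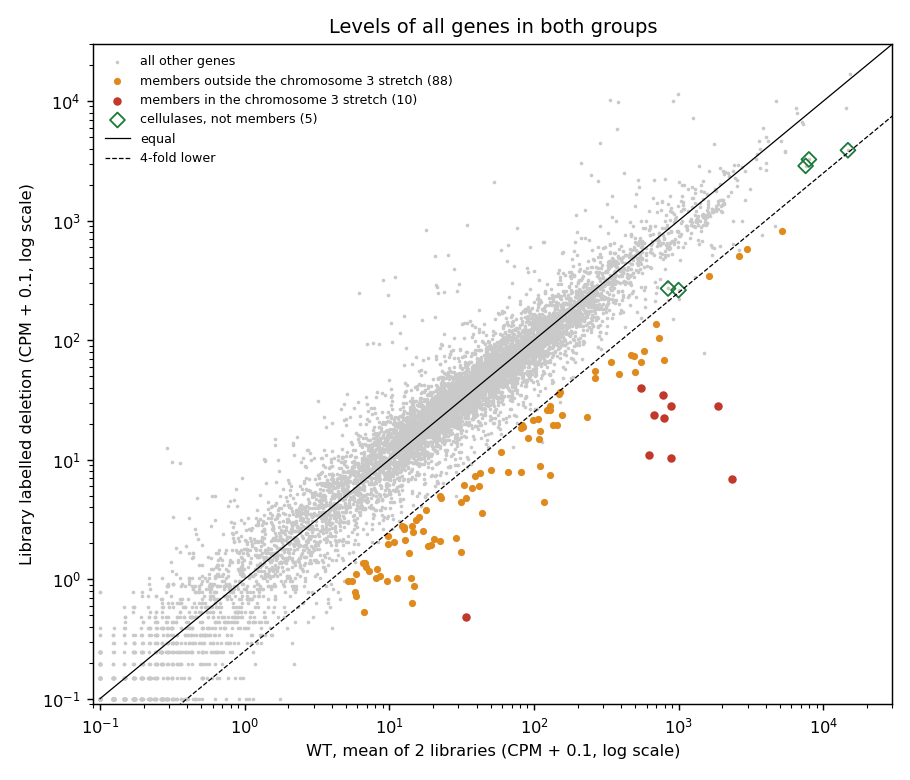
Level of each gene in the library labelled deletion (vertical axis) against its mean in the 2 WT libraries (horizontal axis), both as CPM + 0.1 on log scales; the solid line marks equal levels and the dashed line a 4-fold lower level. The 98 members lie below the dashed line, and 9 of the 10 from the chromosome 3 stretch (red) lie at 39.8 CPM or less in the library labelled deletion and at 545 CPM or more in WT.

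The size of the difference varied widely among the members. The median member was 6.61-fold lower, a log2 ratio of -2.72, and the range ran from 4.10-fold in MYCTH_2302852 to 341-fold in MYCTH_115957. Of the 98 members, 63 were 4- to 8-fold lower, 21 were 8- to 16-fold lower, 8 were 16- to 32-fold lower and 6 were more than 32-fold lower. All folds here are ratios of CPM + 0.1 to the WT mean, which understates the difference of genes near the floor. The WT libraries lay close together in comparison, which the rule favours because each of them had to meet the ratio. The SD of the WT pair was at the median 3.21% of the WT mean of a member, and at most 20.2%. The WT libraries differed by at least 1.25-fold in 2 of 98 members (2.04%) and in 297 of 6926 genes that reached the WT minimum (4.29%). MYCTH_99786, named after its values were seen, had the least alike WT values, with 1.01 CPM in the library labelled deletion against 4.95 and 6.60 CPM in WT, so that it was 4.54-fold lower than WT replicate 1 and 6.03-fold lower than WT replicate 2.

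**Figure D2:**
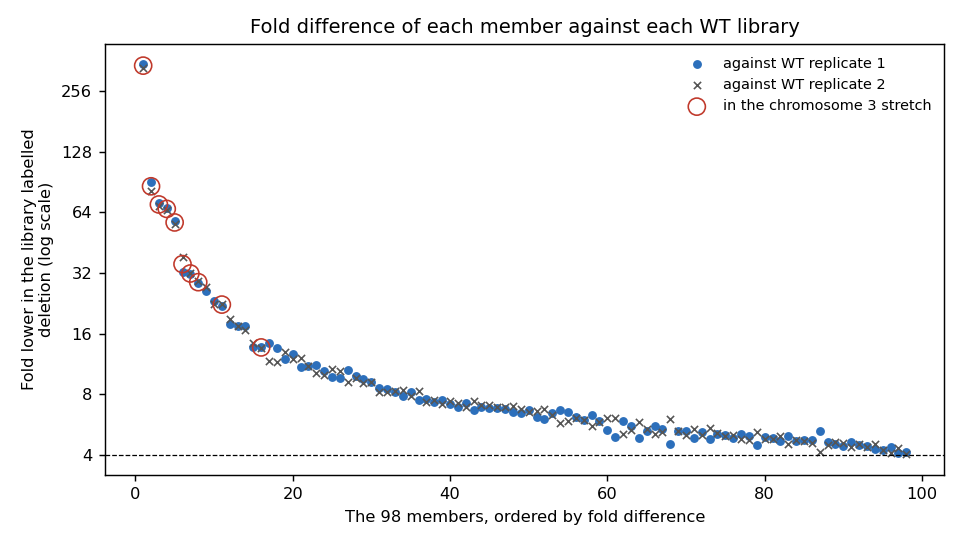
Fold by which each of the 98 members was lower in the library labelled deletion, on a log scale, against WT replicate 1 (dots) and WT replicate 2 (crosses), with members ordered by their fold against the WT mean. Points of 1 member nearly coincide, the dashed line marks the 4-fold limit of the rule, and the 8 largest folds all belong to genes of the chromosome 3 stretch (circles).

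The WT means of the members ran from 5.06 to 5189 CPM, and those of all 6926 genes at or above the minimum reached 15240 CPM. Their median level was 7.004 CPM in the library labelled deletion and 47.2 CPM in WT. The medians of all 6926 genes at or above the minimum were 43.0 CPM in the library labelled deletion and 41.5 CPM in WT. Members at 100 CPM or more in WT were 40 of 98 (40.8%), against 1763 of the 6926 (25.5%), and members at 1000 CPM or more were 6 of 98 (6.12%), against 181 (2.61%). The rule used the WT levels, so these shares are a description and were not tested. Per length of gene the median member was at 6.18 FPKM (reads per kilobase and per 1000000 reads) in the library labelled deletion and at 45.4 FPKM in WT, where the median of all 6926 genes was 28.8 FPKM. The median log2 ratio differed little between bands of WT level. It was -2.58 in the 16 members at 5 to 10 CPM, -2.61 in the 42 members at 10 to 100 CPM, -2.84 in the 34 members at 100 to 1000 CPM and -2.52 in the 6 members above that.

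A few genes held most of the transcripts of the set. The 5 most abundant members in WT held 49.9% of the members' summed CPM in the library labelled deletion and 47.7% in WT, and the 12 most abundant held 65.6% in the library labelled deletion and 68.3% in WT. None of the 98 was among the 100 most abundant genes of the library labelled deletion, whereas 6 were among the 100 most abundant in WT. The rule capped each member in the library labelled deletion at a set share of its WT level. With a highest WT mean of 5189 CPM, that cap alone kept all members out of the 100 most abundant genes there. Their absence is therefore a result of the selection and no separate finding. The files and the gene table give no product for any of these loci, so they are described by their locus tags.

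MYCTH_2303045 was the most abundant member in every library. It was at 810.5 CPM in the library labelled deletion, against 5269 and 5108 CPM in WT, 6.40-fold lower, and it ranked 219th of all genes by CPM in the library labelled deletion against 12th in WT. MYCTH_110028 was at 583 CPM, against 2790 and 3166 CPM in WT, 5.11-fold lower. MYCTH_81925 was at 509 CPM, against 2654 and 2563 CPM in WT, 5.12-fold lower. In all 3 genes the WT libraries lay far above the library labelled deletion, which nevertheless kept them among its more abundant transcripts. MYCTH_33936 followed the same pattern with 345 CPM, against 1645 and 1596 CPM in WT, 4.69-fold lower. MYCTH_2313146 was at 103 CPM, against 751 and 715 CPM in WT, 7.09-fold lower. MYCTH_2305886 was at 68.2 CPM, against 749 and 831 CPM in WT, 11.6-fold lower.

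The other 6 of the 12 most abundant members lay in the chromosome 3 stretch described next and kept much less of their WT level. MYCTH_115957 ranked 6705th of all genes by CPM in the library labelled deletion, at 6.79 CPM, against 43rd in WT, at 2406 and 2294 CPM. MYCTH_48716 was at 28.0 CPM in the library labelled deletion, where it ranked 4536th, and at 1895 and 1839 CPM in WT, where it ranked 67th. Both held middle or low ranks in the library labelled deletion and were among the 100 most abundant transcripts of WT mycelium on Avicel.

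**Figure D3:**
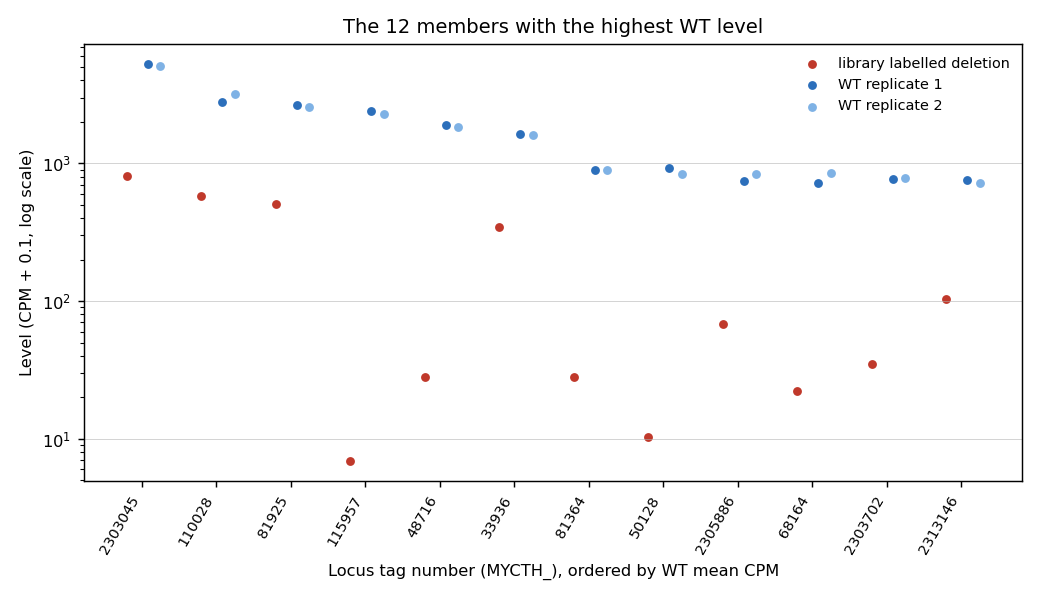
Level (CPM + 0.1, log scale) of the 12 members with the highest WT mean, in the library labelled deletion (red) and in the 2 WT libraries (dark and light blue), 1 point per library. 6 members stayed at or above 68.2 CPM in the library labelled deletion, and the 6 from the chromosome 3 stretch lay at 34.6 CPM or less.

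The lowest ratios of the set lay side by side. In the gene order of assembly ASM22609v1, a stretch of 12 neighbouring genes on chromosome 3, from MYCTH_68164 to MYCTH_107763, held 10 members. It held all of the 8 members with the lowest ratios and 9 of the 12 lowest. The other 3 of the 12 lowest were MYCTH_90182 (26.6-fold lower), MYCTH_2303015 (22.9-fold lower) and MYCTH_101354 (18.4-fold lower), which lay elsewhere. The 10 stretch members held 0.0204% of all counts in the library labelled deletion (95% Wilson interval 0.0198 to 0.0210%), against 0.949% and 0.937% in the WT libraries, a 46.3-fold difference. Leaving the stretch out, the other 88 members held 0.368% of counts in the library labelled deletion and 2.20% ± 0.00165 (SD, n = 2) in WT, a 5.98-fold difference, and their median was 6.23-fold lower, against 44.9-fold lower for the 10.

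Along the stretch the difference was not uniform. MYCTH_68164, at its first position and with an annotated span of 12198 bases the longest gene of the set, was at 22.1 CPM in the library labelled deletion, against 716 and 856 CPM in WT, 35.4-fold lower. MYCTH_50128, the next gene, was at 10.2 CPM, against 931 and 843 CPM in WT, 86.1-fold lower. MYCTH_115957, the third, was 341-fold lower, and its 6.79 CPM stood for 141 reads, against 52528 and 46269 reads in the WT libraries. The fold differed widely within 3 neighbouring genes, each of which was at 716 CPM or more in both WT libraries.

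A gene that is no member separated these from the next run. MYCTH_2303701 was at 43.7 CPM in the library labelled deletion, against 137 and 130 CPM in WT, and fell by 1.62 on the log2 scale (SE 0.09, edgeR quasi-likelihood test, Benjamini-Hochberg adjusted p = 6.12e-17 over all 8340 genes tested). Then came 5 members in a row, the longest unbroken run of the set. MYCTH_2303702 was at 34.6 CPM, against 766 and 783 CPM in WT, 22.3-fold lower. MYCTH_2138881 was at 23.4 CPM, against 672 and 685 CPM in WT, 28.8-fold lower. MYCTH_2303707 was at 39.8 CPM, against 551 and 540 CPM in WT, and its 13.7-fold difference was the smallest among members of the stretch. All 3 had less than 40 CPM in the library labelled deletion and at least 540 CPM in both WT libraries. MYCTH_81364 was at 27.8 CPM, against 887 and 890 CPM in WT, 31.8-fold lower. MYCTH_2303709 was at 10.8 CPM, against 630 and 610 CPM in WT, 57.0-fold lower.

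The stretch had a second gene that is no member and then ended with a pair of members. MYCTH_50920 was at 229 CPM, against 435 and 457 CPM in WT, and fell by 0.97 on the log2 scale (SE 0.07, adjusted p = 3.40e-13, edgeR). It was the most abundant gene of the 12 in the library labelled deletion, although 9 of them were above it in both WT libraries. Beyond it, MYCTH_48716 was 66.5-fold lower. MYCTH_107763, the last, was at 0.385 CPM in the library labelled deletion, against 34.3 and 33.4 CPM in WT, 70.0-fold lower, on 8 reads against 748 and 674. Its fold depends on the value added: its log2 ratio was -6.13, and -5.28 or -4.65 with 0.5 or 1 CPM added in place of 0.1 CPM.

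Per length of gene the order of the stretch members differed between the groups. In the library labelled deletion MYCTH_2303707 led with 37.8 FPKM, and MYCTH_115957, first in WT, had 7.54 FPKM. MYCTH_115957 led in WT with 2731 and 2552 FPKM, followed by MYCTH_48716 with 2016 and 1917 FPKM and MYCTH_50128 with 1381 and 1225 FPKM. MYCTH_81364 had 671 and 660 FPKM and MYCTH_2138881 had 637 and 635 FPKM. MYCTH_2303702 had 557 and 559 FPKM, MYCTH_2303707 had 535 and 514 FPKM and MYCTH_2303709 had 399 and 379 FPKM. No pair of neighbours in this order overlapped between the WT libraries, and MYCTH_81364 and MYCTH_2138881 were 23.0 FPKM apart at their nearest. MYCTH_2303702 and MYCTH_2303707 came slightly nearer, at 557 and 535 FPKM in WT replicate 1. MYCTH_68164, whose length spreads its reads, had 73.7 and 86.3 FPKM, and MYCTH_107763 had 34.6 and 33.1 FPKM.

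**Figure D4:**
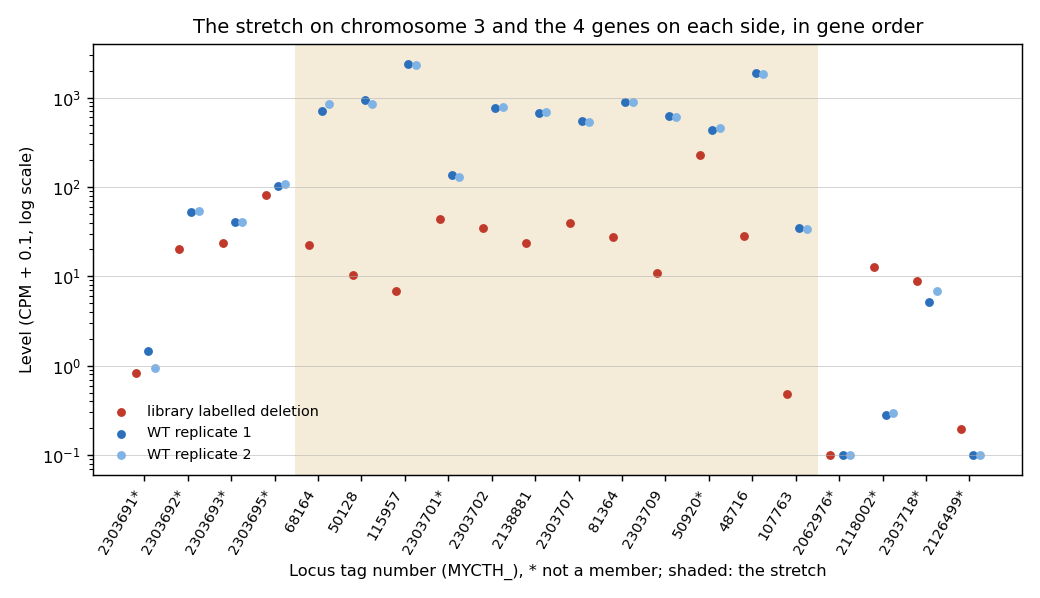
Level (CPM + 0.1, log scale) of the 12 genes of the chromosome 3 stretch (shaded) and the 4 genes on each side, in gene order, in the library labelled deletion (red) and in the 2 WT libraries (dark and light blue), with asterisks on genes that are no members. The 10 members lie at 39.8 CPM or less in the library labelled deletion and at 33.4 CPM or more in WT, the difference narrows at MYCTH_2303701, MYCTH_50920 and the genes before the stretch, and MYCTH_2118002 after it lies at 12.5 CPM in the library labelled deletion and below 0.2 CPM in WT.

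The genes before the stretch were lower by smaller amounts. MYCTH_2303695, directly before MYCTH_68164, was at 81.5 CPM, against 101 and 107 CPM in WT, and fell by 0.37 on the log2 scale (SE 0.08, adjusted p = 2.07e-04, edgeR). The log2 fold changes of the next genes outwards were -0.80 in MYCTH_2303693 (edgeR adjusted p = 4.00e-07) and -1.41 in MYCTH_2303692 (edgeR adjusted p = 1.64e-12), and both fell. With a biological coefficient of variation of 0.2 assumed for every gene, the calls of MYCTH_2303695, MYCTH_2303693 and MYCTH_50920 ended (adjusted p = 0.625, 0.170 and 0.0646, likelihood ratio test of edgeR), and those of MYCTH_2303701 and MYCTH_2303692 remained.

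Past the other end of the stretch the genes did not share its direction. MYCTH_2062976, directly after MYCTH_107763, had no reads in any library. MYCTH_2118002, the next gene, rose to 12.5 CPM on 260 reads in the library labelled deletion, against 0.183 and 0.198 CPM in WT on 4 reads in each library (log2 fold change 5.98, SE 0.37, edgeR adjusted p = 2.69e-15), and was also called by DESeq2 and with a biological coefficient of variation of 0.2. MYCTH_2303718, the third, was at 8.81 CPM, against 5.13 and 6.74 CPM in WT, and rose by 0.56 on the log2 scale (SE 0.21, edgeR adjusted p = 0.0254). Its call ended with DESeq2 (adjusted p = 0.277) and with a biological coefficient of variation of 0.2 (edgeR adjusted p = 0.407).

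Short runs of members also occurred elsewhere. On chromosome 4, MYCTH_2305882, MYCTH_2305886 and MYCTH_2305890 stood next to each other. MYCTH_2305886, the middle gene, had the largest difference, 11.6-fold. MYCTH_2305882 was at 2.41 CPM, against 16.9 and 17.2 CPM in WT, 6.83-fold lower. MYCTH_2305890 was at 48.2 CPM, against 269 and 257 CPM in WT, 5.45-fold lower. The genes beside this run did not share its direction. Of the 6 nearest, 3 on each side, 3 rose and 3 missed the threshold. Of the 3 that rose, MYCTH_69975 and MYCTH_2127554 were not called by DESeq2 (adjusted p = 0.0687 and 0.136), and with a biological coefficient of variation of 0.2 none of the 3 was called (edgeR adjusted p from 0.0747 to 0.407). MYCTH_2305878, directly before the run, was at 28.2 CPM, against 24.7 and 21.9 CPM in WT (edgeR adjusted p = 0.0711).

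Near the start of chromosome 6, MYCTH_58882, MYCTH_104674 and MYCTH_104673 were genes 12, 13 and 14 in the order of the chromosome. MYCTH_58882 was at 2.12 CPM, against 31.8 and 26.0 CPM in WT, 13.1-fold lower. MYCTH_104674 was at 7.56 CPM, against 45.2 and 38.9 CPM in WT, 5.50-fold lower. MYCTH_104673 was at 2.02 CPM, against 12.6 and 12.6 CPM in WT, 5.99-fold lower. All 3 were below both WT libraries and had low to moderate levels in WT. Their neighbours moved in both directions. MYCTH_2309694 rose to 11.6 CPM in the library labelled deletion, against 4.31 and 5.75 CPM in WT (log2 fold change 1.19, SE 0.21, edgeR adjusted p = 1.05e-05). MYCTH_2309695 fell to 31.2 CPM, against 48.1 and 47.8 CPM in WT (log2 fold change -0.63, SE 0.10, edgeR adjusted p = 5.65e-06), a call that ended with a biological coefficient of variation of 0.2 (adjusted p = 0.320).

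Over the 4 unbroken runs of 3 or more members, 17 genes that are no members lay within 3 genes of a run and 15 of them were tested. The stretch ends with a pair, which is no such run, so MYCTH_2118002 and MYCTH_2303718 are not among them. Of the 15, 7 passed the edgeR test downwards (46.7%, against 27.6% of all tested genes, members included) and 4 upwards, where 28.1% of all tested genes passed. The 7 were 5 genes in or before the chromosome 3 stretch and 2 beside the chromosome 6 run. With a biological coefficient of variation of 0.2, 2 of the 15 passed downwards and 1 upwards, and DESeq2 called 6 downwards and 2 upwards.

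Beyond these runs, members formed 5 groups of exactly 2 neighbours, 1 of them at the end of the chromosome 3 stretch. The genes of these pairs were named after their values were seen. On chromosome 1, MYCTH_62625 was at 54.2 CPM, against 501 and 501 CPM in WT, 9.22-fold lower, and its neighbour MYCTH_99098 was at 15.1 CPM, against 95.6 and 84.8 CPM in WT, 5.95-fold lower. MYCTH_73236, a gene with an annotated span of 5702 bases near the far end of the same chromosome, was at 8.66 CPM, against 105 and 114 CPM in WT, 12.5-fold lower. Its neighbour MYCTH_2299806 was at 1.11 CPM, against 7.79 and 8.38 CPM in WT, 6.78-fold lower. The partners of a pair could differ widely in level. On chromosome 5, MYCTH_108493, directly beside the abundant MYCTH_33936, was at 0.915 CPM, against 11.2 and 11.2 CPM in WT, 11.1-fold lower. The remaining pair, on chromosome 1, was MYCTH_2132220, 4.85-fold lower, and MYCTH_2297080, at 2.65 CPM against 12.7 and 12.3 CPM in WT, 4.59-fold lower.

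In all, 24 of the 98 members (24.5%) stood directly next to another member, and 14 (14.3%) lay in unbroken runs of 3 or more. Without the chromosome 3 stretch, 14 of 88 (15.9%) stood next to another. By the mirrored rule, 95 genes were at least 4-fold higher in the library labelled deletion, 1.37% of the 6945 genes at 5 CPM or more there, of which 13 (13.7%) stood next to another and 9 (9.47%) lay in runs of 3 or more. Among 279 genes that were lower by at least 2-fold and missed the 4-fold rule, 32 (11.5%) stood next to another and none lay in a run of 3 or more. Within 5 genes of another of their own set lay 36 of the 98 members (36.7%), 26 of the 88 outside the stretch (29.5%), 102 of the 279 genes (36.6%) and 20 of the 95 genes of the mirrored rule (21.1%). These shares are given side by side and were not tested. A gene of a larger set has more genes of its own set to lie near. The shares of the 279 genes are therefore not like for like with those of the 98 and the 95. The 17 named loci were set aside from the members only, and not from the 279 or the 95 genes.

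Genes directly beside members outside the stretch were examined next, and their shares and those of all genes are given side by side, untested. The 88 members outside the stretch had 157 other genes directly next to them, and 75 of these (47.8%) were under the WT minimum of 5 CPM, as were 2366 of all 9292 genes (25.5%). Among the 82 that reached the minimum, 15 (18.3%) were at least 2-fold lower than both WT libraries, against 387 of 6926 genes (5.59%). Of the 15, 1 was MYCTH_112050, a locus that met the rule and was set aside by name. The 387 include all 98 members, and no member could be among the 82, so these shares are not over like sets. The median log2 ratio of the 82 was -0.22. At least 2-fold higher were 3 of the 82 (3.66%), against 4.07% of the 6926.

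The share of genes that were members ranged from 0.613% to 2.94% over the 7 chromosomes, and differences between chromosomes, or between their ends and the rest, were not tested. Chromosomes 4, 5 and 6 carried 51 of them, 2.59% of their genes at or above the WT minimum, with 2.38% on chromosome 4, 2.56% on chromosome 5 and 2.94% on chromosome 6. Chromosome 3 carried 19 members (2.08%), and 9 (0.984%) without the stretch. Chromosome 1 carried 15 (0.680%), chromosome 2 carried 7 (0.613%) and chromosome 7 carried 6 (0.861%). Genes 2- to 4-fold lower made up between 3.06% on chromosome 3 and 6.62% on chromosome 5.

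The share of members was also higher towards the ends of chromosomes. Among the 100 outermost genes at each end, a limit chosen after the positions were seen, 33 of 866 genes at or above the WT minimum were members (3.81%), against 65 of 6060 further in (1.07%). The 14 ends differed, from 1.32% at the start of chromosome 1 to 8.77% at its far end, with 5 members there, 5 at the start of chromosome 6 (6.76%) and 4 at the far end of chromosome 5 (7.27%). In the same zones 7.39% of genes were 2- to 4-fold lower, against 3.55% further in, and 1.98% of genes at 5 CPM or more in the library labelled deletion met the mirrored rule, against 1.28% further in. The 33 outer members had a median log2 ratio of -2.79 and a WT median of 31.0 CPM, and the 55 inner members outside the stretch had -2.45 and 43.9 CPM.

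**Figure D5:**
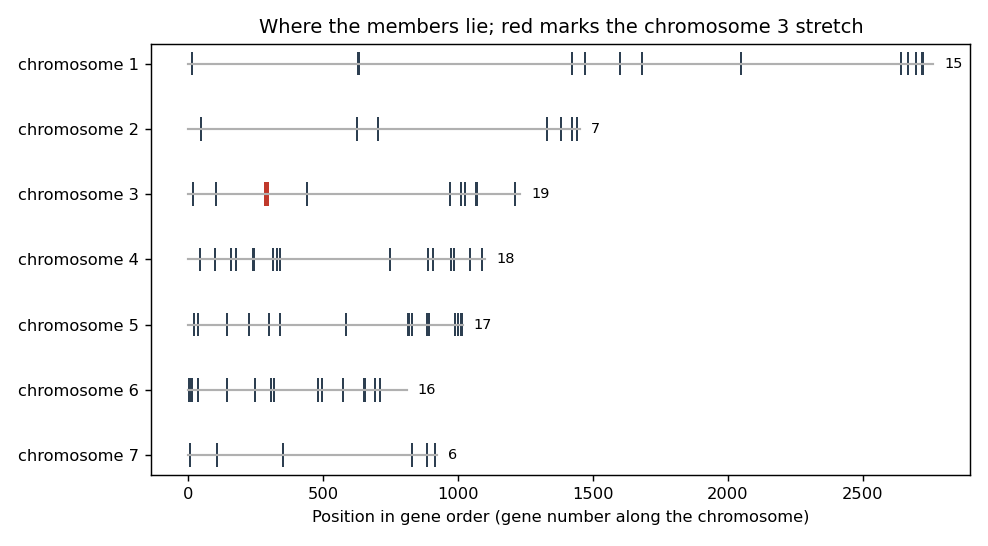
Position of the 98 members along the 7 chromosomes, each tick 1 member placed by its number in the order of genes, with the chromosome 3 stretch in red and the number of members at the right. Ticks are dense on chromosomes 4, 5 and 6 and towards several chromosome ends, such as the far end of chromosome 1 and the start of chromosome 6.

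Some members were close to the detection limit in the library labelled deletion. No member was without reads, and the lowest had 8. There were 13 members under 1 CPM, on 8 to 20 reads each, and 42 members at 10 CPM or more, of which 6 were at 100 CPM or more. MYCTH_2306267 and MYCTH_2029285 were named after their values were seen. MYCTH_2303015 had 11 reads, or 0.530 CPM (95% exact Poisson interval 0.264 to 0.947 CPM, counting error only), against 14.6 and 14.1 CPM in WT, and its log2 ratio of -4.52 was -3.85 or -3.32 with 0.5 or 1 CPM added. MYCTH_2306267 had 16 reads, or 0.770 CPM (0.440 to 1.25 CPM), against 15.1 and 14.4 CPM in WT. MYCTH_2029285 had 9 reads, or 0.433 CPM (0.198 to 0.822 CPM), against 7.15 and 6.05 CPM in WT. The fold of such genes is loosely set by the counts. MYCTH_101354 was at 1.59 CPM (1.09 to 2.23 CPM) on 33 reads, against 30.2 and 31.7 CPM in WT. Its log2 ratio of -4.20 was -3.91 or -3.63 with 0.5 or 1 CPM added. The fold of MYCTH_90182, at 4.28 CPM on 89 reads against 114 and 119 CPM in WT, was set more closely. Its log2 ratio of -4.73 was -4.61 or -4.47 with 0.5 or 1 CPM added.

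The values of genes close to the limits of the rule were as follows. The members just inside the ratio were MYCTH_2302852, MYCTH_47699 and MYCTH_2138963, which were 4.04-, 4.09- and 4.11-fold lower than the nearer WT library. Just outside lay MYCTH_104665, MYCTH_2294455 and MYCTH_110470, at 3.97-, 3.95- and 3.92-fold. At the WT minimum, MYCTH_81817, MYCTH_2306214 and MYCTH_2309486 were just inside with WT means of 5.06, 5.42 and 5.65 CPM. Their log2 ratios of -2.42, -2.51 and -2.89 were -1.70, -1.78 and -1.99 with 1 CPM added. MYCTH_2311067, MYCTH_2307822 and MYCTH_2307619 were just outside with WT means of 4.73, 4.48 and 4.32 CPM, and were 4.61-, 6.50- and 5.38-fold lower than the nearer WT library.

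The listed cellulase genes were lower as well but were not members. From a list of 5 cellulases, 1 beta-glucosidase and 3 regulators, whose names come from published work on this species, 7 of 9 passed the edgeR test downwards (27.6% of all tested genes did) and 1 upwards (28.1%), and none met the 4-fold rule. cbh-1 (MYCTH_109566), a cellobiohydrolase that releases cellobiose from the ends of cellulose chains, came closest at 3.80-fold below the nearer WT library. It was at 3874 CPM in the library labelled deletion, against 14719 and 14820 CPM in WT, and 120 of the 6926 genes at or above the WT minimum had a lower ratio. The endoglucanase MYCTH_111372, which cuts within cellulose chains, was 3.70-fold below the nearer WT library, and the other 3 cellulases were 2.38- to 2.94-fold below it. The beta-glucosidase MYCTH_115968, which splits cellobiose to glucose, was 2.83-fold below it. The activator gene clr-2 (MYCTH_38704) was at 46.5 CPM, against 41.2 and 45.1 CPM in WT, and missed the threshold (edgeR adjusted p = 0.429). The regulator gene xyr-1 (MYCTH_2310145) rose by 0.60 on the log2 scale (SE 0.08, adjusted p = 1.60e-07, edgeR), and the repressor gene cre-1 (MYCTH_2310085) fell by 0.31 (SE 0.07, adjusted p = 6.06e-04, edgeR). Both of these calls ended with a biological coefficient of variation of 0.2 (adjusted p = 0.321 and 0.692, likelihood ratio test of edgeR).

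The 10 loci that met the rule and were set aside were 4.57-fold (MYCTH_112050) to 19.3-fold (MYCTH_80312) lower and held 0.273% of all counts in the library labelled deletion, against 1.48% ± 0.0274 (SD, n = 2) in WT. cbdA (MYCTH_111388), which encodes a cellobiose dehydrogenase, an enzyme that oxidises cellobiose, was among them at 758 CPM, against 3755 and 3739 CPM in WT. Only MYCTH_80312 of the 10 was more than 10-fold lower, against 26 of the 98 members.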

How the data were processed

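Counts of reads per gene and FPKM of 3 libraries were deposited by the authors in 1 table. Per the file headers these are raw counts and FPKM, and per the submitters' processing notes the tools were TopHat2 2.0.8b and HTSeq 0.5.4p2. Nothing on their settings, strandedness, build or annotation is given in the sources used here. Reads of overlapping, antisense or near-identical genes may therefore be mixed. The deposited FPKM equalled the counts times 1 factor for each library and 1 factor for each gene (largest relative deviation 9.00e-10). They are thus the same counts rescaled. They served to compare levels between genes and as an alternative to CPM in the rule, which is no independent check. CPM are counts over the column sum. Each of the 9292 locus tags was found in the RefSeq gene table of ASM22609v1, which supplied symbols, spans, gene type and gene order. Members and lists were chosen with earlier results of these data known, and members carry no test.

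Genes that are no members were tested in R 4.3.3 with edgeR 4.0.16 (filterByExpr, 8340 genes kept, 952 not; TMM; glmQLFit and glmQLFTest; Benjamini-Hochberg, threshold 0.05). SE is the log2 fold change over the square root of F. Since only 1 library is labelled deletion, the WT pair alone set the spread (1 residual and 30 prior degrees of freedom, biological coefficient of variation 0.0484), so p-values reflect only how far these libraries scatter, possibly for technical reasons. On simulated data for this comparison all 100 genes with a log2 change of 1 and all 100 with a log2 change of 2 were recovered, and 3.85% of calls fell on genes left as they were. The simulated counts had the coefficient of 0.0484 for every gene in every library, and the changed genes had a mean of at least 10 CPM. The simulation held no further difference between cultures, so it cannot show how the test does where cultures differ more. DESeq2 1.42.0 and other scalings, filters and minimums were alternatives.

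Named members were the 12 lowest ratios, the 12 highest WT levels, those in runs of 3 or more and the 3 on each side of both limits, unless stated otherwise. Named genes that are no members were MYCTH_90344, listed pathway genes, genes within 3 genes of the chromosome 3 stretch and, chosen after their values were seen, genes within 3 genes of the runs on chromosomes 4 and 6 and 3 of the loci set aside. Protein and promoter sequences were not used here.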

Additional observations from a re-analysis of the deposited data

How the results depend on the processing

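The limits of the rule set the number of members: against 98, a ratio of at most one in 3 gave 155 genes and at most one in 8 gave 33, by construction. Other alternatives gave 77 (pseudocount of 1 CPM) to 130 (no WT minimum), and TMM and DESeq2 size factors gave the same 98 genes. The deposited FPKM gave 99, of which 93 were among the 98. The rule asked of 1 WT library at a time gave 101 to 106 genes, of which 97 were among the 98 each time. The log2 ratio of the members' share was -3.02, and -3.06 with totals without the 20 most abundant genes. The median log2 ratio was -2.72, against -2.60 and -2.45 with 0.5 and 1 CPM added, which shrink low ratios, and -2.76 to -2.72 without 1 WT library. Members in runs numbered 14, against 24 in runs of 2 or more and 5 in runs of 4 or more, and 14 without either WT library, an alternative chosen after the data were seen. Genes past the edgeR test numbered 4643, against 1017 with a biological coefficient of variation of 0.2 (likelihood ratio test), which assumes a larger spread. Upper quartile scaling gave 2467 higher and 2087 lower, against 2343 and 2300. Neighbours of runs past the test numbered 11 of 15, and 3 with that larger spread. DESeq2 gave 8. No named gene that passed the test changed direction, and MYCTH_2305891, which missed it, was at 0.0082 on the log2 scale and at -0.0003 with DESeq2 size factors. No fit is possible without the library labelled deletion, and without 1 WT library no residual degree of freedom remains for edgeR. Alternatives on protein features and promoter motifs were not run. Depth limits the folds of the 13 members under 1 CPM. No paired analysis was possible with 1 library labelled deletion against 2 WT libraries.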
